A study of Homo sapiens with 21 samples.

Results

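Glutathione is a tripeptide of glutamate, cysteine and glycine and the most abundant small thiol of most cells, used to reduce peroxides and to conjugate reactive compounds. It is made in 2 steps, by glutamate-cysteine ligase (a catalytic subunit, GCLC, and a modifier subunit, GCLM) and then by glutathione synthetase (GSS), and glutathione reductase (GSR) returns its oxidised form to the reduced one. Inside the cell it is cleaved by the γ-glutamylcyclotransferases CHAC1 and CHAC2 to 5-oxoproline and cysteinylglycine, GGCT acts on other γ-glutamyl peptides, OPLAH hydrolyses 5-oxoproline to glutamate, and GPX4 spends glutathione to reduce lipid hydroperoxides in membranes. These 9 genes were taken by name from the table of 58735 genes. They were chosen with earlier results of these data known. All 9 were found, and all 9 passed the filter on low counts that kept 16196 genes for testing.

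RNA sequencing gave the level of each gene in cells that carry the label HepG2, an established human line from a liver tumour, after 6 h with coumarin in medium without serum. Coumarin is a plant-derived fragrance compound. There were 7 groups of 3 libraries, an untreated control (0 µM) and coumarin at 0.001, 0.01, 0.1, 1, 10 and 100 µM, all otherwise handled alike, and the design text calls the 3 libraries of each group biological replicates. Because nothing further says how the cultures were kept apart, p-values measure the spread between these libraries.

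The defining transcripts of the labelled cell type were absent. Of 20 hepatocyte and HepG2 genes, 5 had no read in any library, including the albumin gene ALB, and only FOXA1, which encodes a pioneer factor, was at 1 CPM (the count scaled to library size) or more, with 12.0 ± 0.69 CPM (SD, n = 21). Of 7 biliary and simple epithelium genes 3 reached 1 CPM, the keratin genes KRT8 (2325 ± 90), KRT7 (1212 ± 52) and KRT18 (898 ± 48 CPM). In the same list EPCAM had 0 reads and KRT19 1 read over the 21 libraries, and CDH1 (0.66) and SOX9 (0.11 CPM) were low. Among fibroblast and stellate cell genes 7 of 8 reached 1 CPM. GGT1, which encodes the enzyme that cleaves glutathione outside the cell, stood at 31.1 ± 2.1 CPM. DPEP1 and ANPEP, listed with GGT1, had only 79 and 18 reads over the 21 libraries. The summed level of the hepatocyte list was 11.3 to 11.9 CPM in the controls and 11.2 to 12.4 CPM at 100 µM, that of the simple epithelium list 4293 to 4564 and 4056 to 4211 CPM, and that of the fibroblast list 1710 to 1777 and 1671 to 1740 CPM, and their part in the results was not tested. The endothelial and leukocyte lists summed to at most 1.35 and 0.462 CPM in any library. Libraries held 27984517 to 43704155 counts, of which 3 counts correspond to 0.0686 to 0.107 CPM, and mitochondrial transcripts took 5.61% to 6.63%. No pair of replicates agreed within counting error (chi-square of 2.61 to 11.6 on each degree of freedom), and each library was counted as its own sample.

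Start sequences were available in RefSeq windows, running from 250 bases before to 50 bases after a start (GRCh38.p14), for 5 of the 9 genes, CHAC1, CHAC2, GCLC, GCLM and GPX4. The 2 stretches of 28 bases below are shown because CHAC1 and GCLM were the genes whose windows held one of the 3 motifs searched on both strands. The capitals mark the motif, and the sequence is that of the gene's strand.
CHAC1: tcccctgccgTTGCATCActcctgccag
GCLM: tacgatttctGCTTAGTCAttgtcttcc
The CHAC1 stretch lies at chr15:40953252-40953279 on the plus strand and overlaps untranslated exon sequence of 2 transcripts in GENCODE 29. It holds TGATGNAA, the composite motif of C/EBP and ATF factors, in reverse orientation, with its first base at -209 from the RefSeq start. Of 35116 such windows of all genes, 3.62% held that motif. The GCLM stretch lies at chr1:93909447-93909474 on the minus strand, overlapping the untranslated part of 1 exon, and holds TGACNNNGC, the core of the antioxidant response element, in reverse orientation at -34, a motif found in 13.3% of windows. The third motif, the cyclic AMP response element TGACGTCA, was in 1.85% of windows and in none of the 8 windows of these genes. These matches overlap no other match, and they are letters in a window, not measured sites.

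The 9 transcripts covered a wide range of levels in the untreated cells. In FPKM, the authors' deposited value per length of gene, which allows a comparison between genes, GPX4 was highest (75.9 ± 8.7, SD, n = 3), followed by GGCT (38.6 ± 0.88), GSR (38.2 ± 0.53), CHAC2 (32.4 ± 2.5), GCLM (19.8 ± 0.98), GSS (14.4 ± 0.62), GCLC (9.92 ± 0.36), OPLAH (2.33 ± 0.16) and CHAC1 (1.77 ± 0.15). GGCT and GSR overlapped, and every other gene of the order lay above the next one down in all 3 control libraries. At 100 µM CHAC1 stood at 13.1 ± 0.13 FPKM and had passed OPLAH and GCLC, lying between GSS (14.5 ± 0.66) and GCLC (9.96 ± 0.31) with no overlap with either. The other 8 genes kept their order at that dose. These orders rest on the deposited gene lengths, 2058 bases for CHAC1, 6174 for GSS and 8646 for GCLC. In CPM, which takes no length into account, CHAC1 (26.3) lay below GSS (87.5) and GCLC (84.3) at 100 µM.

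**Figure D1:**
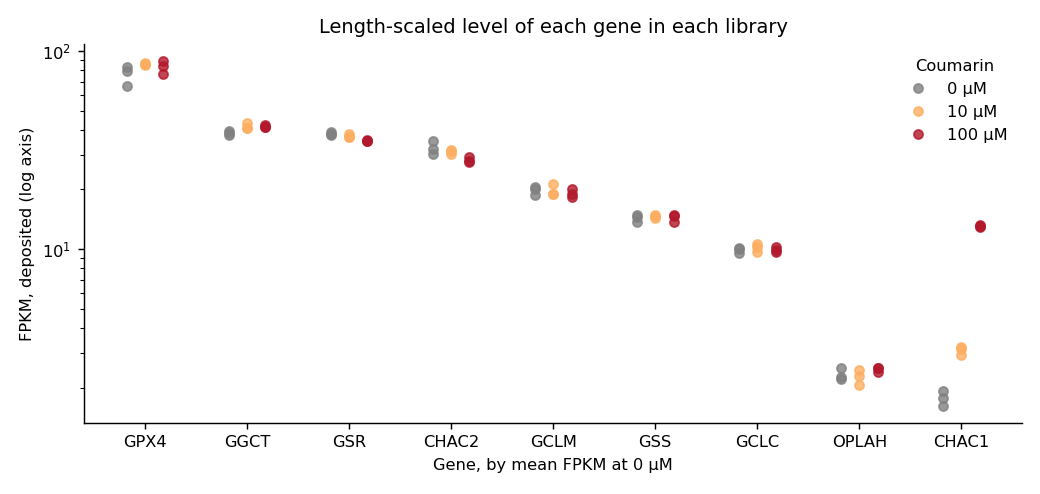
Deposited FPKM (log axis) of the 9 genes in each of the 3 libraries at 0, 10 and 100 µM coumarin, 1 point per library, with genes ordered by their mean at 0 µM. CHAC1 is the lowest gene at 0 µM (1.77 FPKM on average) and lies above GCLC at 100 µM (13.1 against 9.96), while the other genes stay near their control level.

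CHAC1 is the cyclotransferase known as a target of the transcription factor ATF4 under stress. It was the only gene of the 9 called at more than 1 dose in the reported edgeR fit (adjusted p under 0.05). In the controls it stood at 3.83, 3.29 and 3.56 CPM (94 to 139 reads), scaled by the trimmed mean of M values (TMM). It stood at 6.22, 6.44 and 5.89 CPM at 10 µM and at 26.0, 26.6 and 26.3 CPM at 100 µM. All 3 libraries at 10 µM lay above all 15 libraries at lower doses, and all 3 at 100 µM lay above those at 10 µM.

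The 12 libraries at the 4 lowest doses overlapped the controls. CHAC1 stood at 3.89, 3.45 and 4.30 CPM at 0.001 µM, 4.30, 3.44 and 3.62 at 0.01 µM, 3.78, 3.36 and 3.22 at 0.1 µM, and 3.96, 3.77 and 4.12 at 1 µM. The mean of these 4 doses differed from control by 0.07 on the log2 scale (SE 0.09, 95% interval -0.10 to 0.25, edgeR adjusted p = 0.838). For each of the 4 doses alone the log2 fold change lay between -0.05 and 0.14, with 95% intervals that reached from -0.27 to 0.36.

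At 10 µM CHAC1 rose 1.73-fold against control (log2 fold change 0.79, SE 0.10, adjusted p = 0.000168, higher in 3 of 3 libraries). It was the only one of the 9 genes called there, where 0.327% of all genes tested were called (0.241% higher and 0.0864% lower). At an unadjusted p under 0.05 there were 3 of 9 genes beside 12.2%. In 3 of the 9, CHAC1, GGCT and GPX4, all libraries at 10 µM lay above all controls, as they did for 8.78% of all genes, and in 1, GSR, all lay below, as for 7.9%. Against the mean of the 4 lowest doses, a comparison that uses no control library, CHAC1 rose by 0.71 (SE 0.08, adjusted p = 7.56e-06), 1 of 9 genes called beside 0.161% of all genes (0.0803% higher and 0.0803% lower), and its p-value was the smallest of all 16196. In these bulk libraries, a change in the number of cells carrying a transcript and a change in its amount per cell cannot be told apart.

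At 100 µM CHAC1 rose 7.35-fold against control (log2 fold change 2.88, SE 0.09, 95% interval 2.69 to 3.06, adjusted p = 4.08e-19), again with the smallest p of all genes. Between 10 and 100 µM it rose 4.26-fold (log2 2.09, SE 0.08, adjusted p = 2.43e-16), 1 of 9 genes called beside 4.57% of all genes (2.07% higher and 2.49% lower). All libraries at 100 µM lay above all at 10 µM in 1 of the 9 genes, CHAC1, beside 12.1% of all genes, and below in 2, CHAC2 and GSR, beside 13.6%. Over the 6 treated doses its level rose by 0.46 (SE 0.02) on the log2 scale per 10-fold step in dose (adjusted p = 2.63e-18), 1 of 9 genes called beside 4.45% (1.94% with a rising slope), although the values given here place that rise at the top 2 doses. CHAC1 was called at 10 and at 100 µM under all 15 alternative settings for each, with log2 fold changes of 0.56 to 0.85 and 2.34 to 2.94. CHAC1 lies on chromosome 15 from 40952962 to 40956519, on the plus strand (GRCh38), and no other gene of the table overlaps it.

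CHAC2, its paralog, is known as the form made without stress. It was the only gene of the 9 called lower in the reported edgeR fit. GSR was also lower at 100 µM, without passing the threshold (log2 fold change -0.11, edgeR adjusted p = 0.0599). CHAC2 stood at 44.8, 41.6 and 38.8 CPM in the controls, 39.8, 38.8 and 40.8 at 10 µM, and 35.6, 37.6 and 35.9 at 100 µM. The libraries at 100 µM all lay below the controls, by a narrow gap between the highest at 100 µM and the lowest control. CHAC2 fell by 0.20 on the log2 scale (SE 0.05, adjusted p = 0.0164), to 0.871 of control. The call was lost without control replicate 1 (-0.14, adjusted p = 0.166), without replicate 1 at 100 µM (-0.18, adjusted p = 0.0895) and without replicate 3 at 100 µM (-0.19, adjusted p = 0.0635). From 0.001 to 1 µM its group means lay between 39.6 ± 0.99 and 43.4 ± 0.72 CPM, its change at 10 µM was -0.07 (SE 0.05, adjusted p = 0.613), and its slope over dose was not called (adjusted p = 0.109). CHAC2 lies on chromosome 2 from 53767792 to 53775196 and overlaps ASB3 and GPR75-ASB3 on the other strand. Those were assigned 1610 and 134 reads over the 21 libraries, 5.41% and 0.45% of the number CHAC2 was assigned, and the use of strand in counting is not given in the sources used here.

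**Figure D2:**
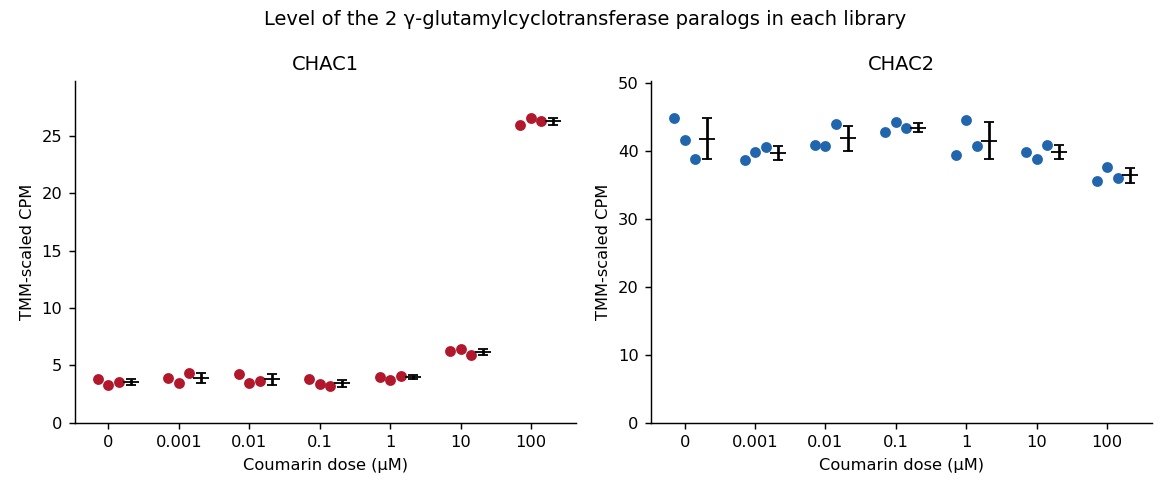
TMM-scaled CPM of CHAC1 (left) and CHAC2 (right) against coumarin dose in µM, 1 point per library, with the mean and SD of each group of 3 beside the points and both axes starting at 0. CHAC1 leaves the control range at 10 µM (5.89 to 6.44 CPM) and reaches 26.0 to 26.6 CPM at 100 µM, while CHAC2 at 100 µM (35.6 to 37.6 CPM) lies just under its controls.

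The balance between the paralogs differed by dose. CHAC1 made up 5.20%, 4.83% and 5.56% of the summed FPKM of CHAC1 and CHAC2 in the controls, 9.11%, 9.63% and 8.49% at 10 µM, and 31.9%, 31.2% and 32.0% at 100 µM. CHAC2 thus remained the more abundant transcript in all 21 libraries. The summed FPKM was 34.2 ± 2.5 at 0 µM, 34.1 ± 0.71 at 10 µM and 41.2 ± 0.91 at 100 µM (SD, n = 3). The CHAC1 to CHAC2 ratio within a library is free of library scaling, and its log2 value was higher than control by 3.08 at 100 µM and by 0.87 at 10 µM in 3 of 3 libraries each (exact permutation test, 2-sided, p = 0.1 for both, the smallest p that 3 against 3 allows).

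At 100 µM 2 of the 9 genes were called, CHAC1 higher and CHAC2 lower, beside 8.47% of all genes tested (3.66% higher and 4.8% lower). Over the 9 genes the median log2 fold change was 0.01, and over all genes it was 0.00247. At an unadjusted p under 0.05 there were 4 of 9 genes beside 23.2% of all genes. In 2 of the 9, CHAC1 and GGCT, all 3 libraries at 100 µM lay above all controls, as they did for 13.1% of all genes, and in 2, CHAC2 and GSR, all 3 lay below, as for 13.9%. An F-test over all 7 groups called CHAC1 (adjusted p = 2.13e-21) and CHAC2 (adjusted p = 0.0406), 2 of 9 genes beside 4.35% of all genes. The CHAC2 call over the 7 groups was lost without any single library at 10 or 100 µM, without replicate 1 or 2 at 0.001 µM, replicate 3 at 0.01 µM, or replicate 2 or 3 at 0.1 µM.

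With the filter on low counts, none of the 9 was called by edgeR at 0.001, 0.01, 0.1 or 1 µM, nor for the mean of these doses against control. The background there was 0% of genes at 0.001 µM, 0.00617% at 0.01 µM, 0.00617% at 0.1 µM and 0% at 1 µM, and 0.00617% for the mean of the 4. At an unadjusted p under 0.05 there was 1 gene of 9 at each of 0.001, 0.01 and 0.1 µM and 0 at 1 µM, beside 8.42%, 8.81%, 6.27% and 3.91% of all genes. For the mean of the 4 doses it was 1 of 9, beside 7.56%. DESeq2 and limma also called none of the 9 at these doses or for their mean. With no filter on low counts edgeR called 1 of the 9, GPX4, at 0.001 µM, at 0.01 µM and for the mean of the 4 doses.

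**Figure D3:**
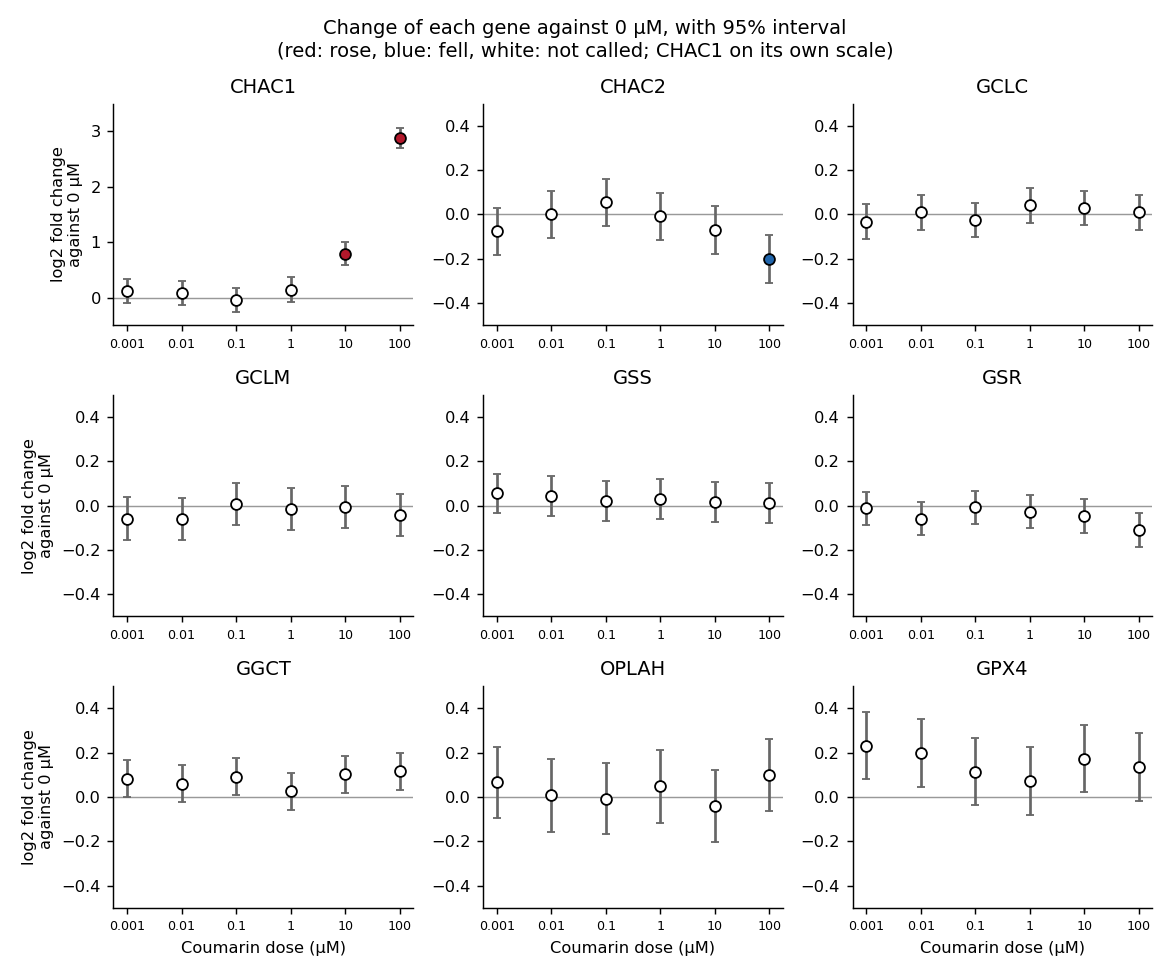
Log2 fold change of each of the 9 genes against 0 µM at each coumarin dose, with the 95% interval from the edgeR fit of all 21 libraries, on an axis of -0.5 to 0.5 except CHAC1, which has its own axis. Filled points were called: CHAC1 at 10 and 100 µM (red, 0.79 and 2.88) and CHAC2 at 100 µM (blue, -0.20). All comparisons share the same 3 control libraries.

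The genes of glutathione synthesis stayed close to control. GCLC, the catalytic subunit of the rate-limiting ligase, stood at 85.2, 80.8 and 85.0 CPM in the controls, 88.6, 81.6 and 85.9 at 10 µM, and 81.7, 84.1 and 87.1 at 100 µM. GCLM, the subunit that raises the ligase's activity, stood at 106, 109 and 98.8 CPM in the controls, 112, 101 and 100.1 at 10 µM, and 97.0, 107 and 101 at 100 µM. In both genes the controls and the groups at 10 and 100 µM overlapped.

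GSS, which adds glycine to complete the tripeptide, stood at 89.1, 83.0 and 87.9 CPM in the controls and 90.1, 83.1 and 89.3 at 100 µM. At 100 µM the log2 fold change was 0.01 for GCLC (95% interval -0.07 to 0.09, adjusted p = 0.908), -0.04 for GCLM (-0.14 to 0.05, adjusted p = 0.632) and 0.01 for GSS (-0.08 to 0.10, adjusted p = 0.899). Over these 3 genes and all 6 doses, the 18 log2 fold changes lay between -0.06 and 0.06 and their 95% intervals between -0.16 and 0.15, so larger changes lie outside the intervals. These intervals are for each value alone, not adjusted over the 18.

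The FPKM ratio of GCLC to GCLM was 0.505, 0.463 and 0.539 in the controls and 0.528, 0.495 and 0.541 at 100 µM, with overlapping groups. The level of the ratio rests on the deposited lengths (8646 and 5420 bases), while its change between doses does not. The log2 value of the ratio differed by 0.05 at 100 µM (exact permutation test, 2-sided, p = 0.6) and by 0.03 at 10 µM (exact permutation test, 2-sided, p = 0.7). GCLC lies on chromosome 6 from 53497341 to 53616970, GCLM on chromosome 1 from 93885205 to 93909456 and GSS on chromosome 20 from 34928433 to 34956027, all on the minus strand.

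GSR, the NADPH-dependent reductase that regenerates glutathione, was slightly lower at 100 µM without passing the threshold. It stood at 141, 139 and 139.6 CPM in the controls, 138, 135 and 134 at 10 µM, and 130.4, 130.2 and 129 at 100 µM. The 3 libraries at 100 µM lay below all other libraries but replicate 3 at 0.01 µM (126 CPM). The log2 fold change at 100 µM was -0.11 (SE 0.04, 95% interval -0.18 to -0.03, adjusted p = 0.0599). It fell under the threshold in 4 of the 15 alternatives: with DESeq2 (adjusted p = 0.0364), with limma on log2(FPKM + 1) (adjusted p = 0.0429) or log2(FPKM + 0.1) (adjusted p = 0.0440), and with an offset for gene length (adjusted p = 0.0302). GSR lies on chromosome 8 from 30678061 to 30727999.

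Of the other genes of γ-glutamyl breakdown, neither GGCT nor OPLAH was called at any dose by edgeR with its standard filter. GGCT, which releases 5-oxoproline from γ-glutamyl peptides, stood at 61.1, 60.5 and 58.7 CPM in the controls, 66.5, 63.5 and 63.6 at 10 µM, and 64.5, 66.3 and 64.4 at 100 µM. All 3 libraries at each of those doses lay above the controls, as for 8.78% of all genes at 10 µM and 13.1% at 100 µM. So did all 3 at 0.1 µM (63.5, 63.6 and 64.9 CPM), where the share of all genes was not counted. The log2 fold change was 0.12 at 100 µM (SE 0.04, adjusted p = 0.0760) and 0.10 at 10 µM (SE 0.04, adjusted p = 0.289). With a filter of 1 CPM in 3 libraries the value at 100 µM passed the threshold (adjusted p = 0.0412).

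OPLAH, which opens the 5-oxoproline ring, was the least abundant of the 9 in the controls after CHAC1, in FPKM. It stood at 9.56, 9.87 and 10.9 CPM in the controls, 8.92, 10.6 and 9.99 at 10 µM, and 10.9, 10.5 and 11.03 at 100 µM, with overlap. Its log2 fold change at 100 µM was 0.10 (95% interval -0.06 to 0.26, adjusted p = 0.498), and at 282 to 429 reads a library its interval was wider than that of GGCT (0.03 to 0.20). GGCT lies on chromosome 7 from 30496621 to 30504844 and OPLAH on chromosome 8 from 144051266 to 144063965.

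GPX4, the selenium-dependent peroxidase that protects membrane lipids, was uneven between the replicates of some groups. It stood at 155, 131 and 162 CPM in the controls, 165, 162 and 199 at 0.001 µM, 168, 167 and 171 at 10 µM, and 175, 151 and 167 at 100 µM. Control replicate 2 was the lowest of the 21 libraries and replicate 3 at 0.001 µM the highest. They were also the libraries with the fewest and the most counts (27984517 and 43704155), and a link with depth was not tested.

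The log2 fold change of GPX4 against control was 0.23 at 0.001 µM (SE 0.07, adjusted p = 0.555), 0.20 at 0.01 µM (adjusted p = 0.537), 0.17 at 10 µM (adjusted p = 0.332) and 0.13 at 100 µM (adjusted p = 0.281), and 0.11 and 0.07 at 0.1 and 1 µM. These values share the same controls. With no filter on low counts GPX4 was called at 0.001 µM (adjusted p = 0.000124), 0.01 µM (adjusted p = 0.00666) and 10 µM (adjusted p = 0.0104). Without control replicate 2 the value at 0.001 µM was 0.15 and that at 100 µM 0.05. Among treated libraries alone the slope over dose was -0.02 per 10-fold step (adjusted p = 0.550). GPX4 lies on chromosome 19 from 1103926 to 1106791.

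Across the 21 libraries, the correlations of log2 CPM between the 9 genes, given as a description, share library, depth and dose. CHAC1 and CHAC2 ran opposite (Pearson r = -0.75, n = 21), as did CHAC1 and GSR (-0.66), and both values include the high CHAC1 libraries at 100 µM, which stand apart. GSS and GPX4 ran together (0.81), and GPX4 and GCLM opposite (-0.62). The ligase subunits GCLC and GCLM had an r of 0.26.

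The 5 other genes most like CHAC1 in log2 CPM over the 21 libraries, among 11622 whose log2 CPM averaged 1 or more, were TRIB3 (r = 0.977), PSAT1 (0.975), PCK2 (0.974), PSPH (0.973) and SESN2 (0.973). TRIB3 encodes a pseudokinase, PSAT1 and PSPH enzymes of serine synthesis, PCK2 the mitochondrial phosphoenolpyruvate carboxykinase and SESN2 a sestrin. These genes were picked on the same libraries, so their changes with dose follow in part from the choice and are given as a description. Their log2 fold changes were 0.40 (PSAT1) to 1.43 (SESN2) at 100 µM and 0.11 to 0.32 at 10 µM, beside 2.88 and 0.79 for CHAC1. The genes most like CHAC2 were PDHX (0.868), RBBP7 (0.863), NUP107 (0.846), GAPDHP1 (0.838) and ANXA3 (0.838). Picked in the same way, they had log2 fold changes at 100 µM of -0.17 (PDHX, a subunit of pyruvate dehydrogenase), -0.06 (RBBP7, a histone-binding protein), -0.15 (NUP107, a nuclear pore protein), -0.36 (GAPDHP1) and -0.19 (ANXA3, an annexin). GAPDHP1 is a pseudogene of GAPDH, so its reads are uncertain.

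Of 105 other genes, of glutathione metabolism and linked paths and including 11 regulator genes, 104 were in the table and 95 were tested. At 100 µM 11 rose, 6 of them regulators, and 3 fell, with a median log2 fold change of 0.04 over the 95. At 10 µM 1 rose, also a regulator, and 0 fell. Over all genes tested, 3.66% rose and 4.8% fell at 100 µM, and 0.241% rose and 0.0864% fell at 10 µM. The lists were chosen with earlier results of these data known, so their counts beside these shares are a description. In the cysteine supply list 4 of 8 rose at 100 µM, with a median of 0.30, beside 3.66% of all genes. CTH, which makes cysteine from cystathionine, stood at 23.7 ± 0.33 CPM in the controls and 36.7 ± 0.50 at 100 µM, a rise of 0.63 (SE 0.05, adjusted p = 1.19e-09) on the log2 scale. The neutral amino acid transporter genes SLC1A5 (0.40, adjusted p = 1.01e-06) and SLC1A4 (0.35, adjusted p = 1.90e-05) rose too. The fourth, named after its value was seen, was SLC3A2, the heavy chain of the cystine transporter (0.25, adjusted p = 0.000152).

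SLC7A11, the light chain that carries cystine in, was not called at 100 µM, at 189 ± 12 CPM in the controls and 214 ± 2.5 at 100 µM (log2 fold change 0.18, SE 0.07, adjusted p = 0.104). It was called there with no filter on low counts (adjusted p = 0.00216), with an offset for gene length (adjusted p = 0.0165) and in a fit of the 6 libraries compared (adjusted p = 0.0123). Its slope over the treated doses was 0.06 per 10-fold step (SE 0.01, adjusted p = 0.00105). The slope of CHAC1 was 0.46, and the difference between them was not itself tested.

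Of 11 regulator genes 6 rose at 100 µM and 0 fell, with a median of 0.21, beside 3.66% and 4.8% of all genes. This list too was chosen with earlier results known, so its count is a description. ATF3, a stress-induced partner of ATF4, went from 5.16 ± 0.62 to 17.6 ± 0.10 CPM and rose by 1.77 (SE 0.09, adjusted p = 1.25e-13). CEBPG rose by 0.61 (SE 0.05, adjusted p = 1.86e-10) and DDIT3 by 1.01 (SE 0.08, adjusted p = 3.26e-10), both encoding C/EBP-family factors. ATF4 itself rose from 378 ± 18 to 476 ± 6.4 CPM (0.34, SE 0.04, adjusted p = 2.41e-06). NFE2L2, which encodes NRF2, the activator of GCLC and GCLM through antioxidant response elements, was not called, at 127 ± 5.0 and 121 ± 1.8 CPM (-0.07, 95% interval -0.15 to 0.01, adjusted p = 0.30). These are transcript levels, and neither the amount nor the activity of the NRF2 protein was measured. DDIT3 and NFE2L2 overlap more abundant genes on the other strand (MARS for DDIT3 and AGPS for NFE2L2).

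In the thioredoxin system, the thiol-reducing path parallel to glutathione, 1 of 11 genes rose and 2 fell at 100 µM, with a median of 0.04, beside 3.66% and 4.8% of all genes. SRXN1, the reductase of overoxidised peroxiredoxins, rose by 0.42 (SE 0.08, adjusted p = 0.00148). TXNRD1, the cytosolic thioredoxin reductase, fell by 0.17 (SE 0.04, adjusted p = 0.00543), a call lost without control replicate 1 (-0.13, adjusted p = 0.0642). PRDX3, the mitochondrial peroxiredoxin, fell by 0.13 (SE 0.04, adjusted p = 0.0259), a call lost with no filter on low counts or without any one of 5 of the 6 libraries compared, all but control replicate 3. TXNRD1 overlaps EID3 and RPL18AP3 on its own strand.

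Of 15 glutathione S-transferase genes tested, GSTO2 fell at 100 µM (-0.21, SE 0.06, adjusted p = 0.0309), 1 gene beside 4.8% of all genes, and the other 14 were not called. The GSTO2 call was lost under 9 of the 15 alternatives, including each single control left out. No gene was called at 100 µM in the lists of extracellular and peptide breakdown (6 tested), other glutathione peroxidases (2), glutaredoxins and the thiol ester cycle (7), NADPH supply (10), glutathione transport (9), selenoprotein synthesis (7) or ferroptosis partners of GPX4 (9), where the list medians lay between -0.06 and 0.09.

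**Figure D4:**
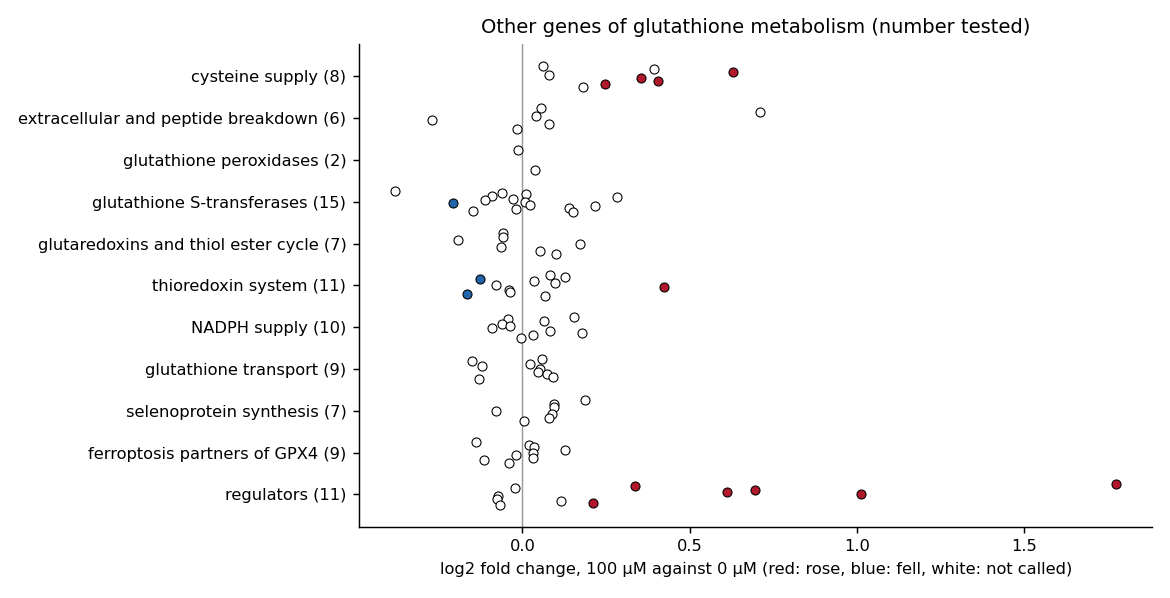
Log2 fold change at 100 µM against 0 µM of the 95 other glutathione-related genes tested, 1 point per gene, by list, with the number tested in parentheses (red: rose, blue: fell, white: not called). The 11 risers lie in the cysteine supply list (4), the thioredoxin system (1) and the regulators (6), and 3 genes fell.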

How the data were processed

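Poly(dT)-selected RNA of 21 libraries, 3 per dose, was sequenced, per the labels' protocols. The deposited counts are whole numbers per gene, and the deposited FPKM are the authors' values, equal to counts over gene length and 1 constant per library (0.948 to 1.002 times the count total). Gene length is the authors' deposited value in bases (other unit). Per the submitters' processing notes, HISAT2, DESeq2 and GRCh38 were used, in roles not stated. The sources used here give neither the counting tool nor its use of strand.

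Counts were tested with edgeR 4.0.16 (filterByExpr, TMM, quasi-likelihood, R 4.3.3) in 1 fit of all 21 libraries (14 residual degrees of freedom), with Benjamini-Hochberg adjustment over 16196 genes and a threshold of 0.05, after a test on simulated data. CPM are TMM-scaled, except those of the cell type markers and of library depth, which are scaled to the count total alone. Intervals cover 95%. Alternatives were DESeq2 1.42.0, its size factors, limma 3.58.1 on log2(FPKM + 1) and log2(FPKM + 0.1), other filters, a gene length offset, a replicate block, fits of the groups compared and each library left out.

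The members and lists were chosen with earlier results of these data known. All members are described. Named from each list were up to 3 called genes with the smallest p at 100 µM, and always SLC7A11, ATF4 and NFE2L2. Other genes like a called member were the 5 with the highest correlation. MAFF and SLC3A2 were named after their values were seen, and alternatives for genes outside the 9 were added after seeing the data. Gene coordinates are those of the deposited table, equal to GENCODE 29. The overlap of 1 named gene with another gene is not reported here. A comparison of the CHAC1 and CHAC2 proteins was not analysed here.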

Additional observations from a re-analysis of the deposited data

How the results depend on the processing

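No call changed direction in any setting. The count of the 9 genes called was within 1.5 times the reported one in all settings except these and, over the 7 groups, the replicate block given below. With no filter on low counts, 1 gene, GPX4, was called at 0.001 µM, 1, again GPX4, at 0.01 µM and for the mean of 0.001 to 1 µM, and 2, CHAC1 and GPX4, at 10 µM, and the cause was not tested. At 100 µM it was 1 to 2 when 1 library was left out, where all genes called moved from 1371 to between 681 and 1588 (787 and 761 without control replicates 1 and 2, 681 and 878 without replicates 1 and 3 at 100 µM). Over the 7 groups it was 1 with limma on log2(FPKM + 1), 1 with limma on log2(FPKM + 0.1), and 1 to 2 when 1 library was left out, where CHAC2 was lost. At 10 µM all genes called were 53, 379 with no filter, 155 with DESeq2, 17 and 27 with limma, and 7 without control replicate 2 or 9 without replicate 3 at 10 µM. CHAC1 was called there in each. Between 10 and 100 µM they were 740, and 268 to 446 without replicate 1 or 3 at 10 µM or any 1 library at 100 µM. Against the mean of the lower doses they were 26, and 170 with no filter, 63 with DESeq2, 8 and 11 with limma, and 6 to 60 when 1 library was left out (6 without replicate 3 and 8 without replicate 1 at 10 µM, 60 without replicate 3 at 1 µM). For the slope they were 720, and 473 and 457 without replicate 2 at 0.001 and 100 µM. Over the 7 groups they were 705, 1519 with no filter, 1139 with DESeq2, 344 to 368 without 1 library at 100 µM, and 1064 without replicate 1 at 0.1 µM.

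Replicate numbers did not pair the libraries in log2 CPM, correlated after subtracting the mean of each dose group. Of 63 same-number pairs 0 correlated above 0.1 (-0.095 to 0.0751), and 0 of 6 libraries at 0 and 100 µM correlated best with its own number. With the replicate block the 7 groups gave 1 of the 9 genes (659 genes in all, 705 without it), and the other counts of these genes did not change. The exact permutation p (2-sided) of the CHAC1 to CHAC2 ratio was 0.25 at both doses with the block, the smallest p that 3 blocks allow.

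Of the 95 other genes, 1 was called at 10 µM, 5 with no filter, 2 with DESeq2, 2 in a fit of only the groups compared, and 0 to 1 when 1 library was left out. The precision of CHAC1 at low doses is limited by 94 to 185 reads a library.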

Other observations

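The single regulator gene called at 10 µM was MAFF, which encodes a small MAF protein that pairs with NRF2. It stood at 17.3 ± 1.3 CPM in the controls, 21.7 ± 1.3 at 10 µM and 16.4 ± 0.20 at 100 µM (SD, n = 3). MAFF rose at 10 µM (log2 fold change 0.33, SE 0.06, edgeR adjusted p = 0.0130) and fell from 10 to 100 µM (-0.41, SE 0.06, adjusted p = 0.000157), with a value of -0.08 at 100 µM against control (adjusted p = 0.526). The call at 10 µM was lost without control replicate 2 (0.30, adjusted p = 0.117), control replicate 3 (0.30, adjusted p = 0.0576) or replicate 3 at 10 µM (0.28, adjusted p = 0.153). MAFF overlaps PLA2G6 on the other strand, which was assigned 14.3% as many reads.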
